A study of Mus musculus with 2 samples.

Results

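Cathepsins are proteases that work mostly in the acidic lysosome, and cystatin C is a secreted inhibitor of the cysteine type among them. The genes described were Ctsa, Ctsb, Ctsc, Ctsd, Ctsf, Ctsh, Ctsl, Ctss, Ctsz and Cst3, which encodes cystatin C. They were chosen by name, as lysosomal cathepsin genes and their inhibitor. No rule on their levels was used, but earlier results of these data were known. All 10 were found among the 53801 genes listed, and all 10 had at least 10 counts in both libraries. The data were counts per gene from RNA-seq of microglia sorted from 2 mice, 1 library per mouse. Both mice belonged to the same group, so the data hold no contrast between conditions, and no test between groups was run. They were male Cx3cr1(CreER/wt) mice on the C57BL/6 background, 8 to 10 weeks old by the series' design text, which carry a tamoxifen-inducible Cre in the Cx3cr1 gene and keep a wild-type Cx3cr1 copy, and served as wild-type controls. Both received tamoxifen at 75 mg/kg daily for 4 days and were subjected to sham surgery 14 days after the first dose, as the design text and the sample titles say. The treatment label of both samples reads none, and the study's methods describe another age range and both sexes. The left hemisphere was taken 3 days after surgery, and cells were sorted as CD11c–Ly6G–CD11b+CD45low. Every mouse analysed thus carried the CreER allele and had received tamoxifen. The libraries from mice with middle cerebral artery occlusion were not analysed here.

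Cathepsins are made as inactive precursors, are sorted to the lysosome largely through mannose 6-phosphate receptors, and become active there when their propeptide is removed. Most are cysteine proteases. Cathepsin D is an aspartic protease and cathepsin A a serine carboxypeptidase. Microglia take up debris and dying cells and depend on these enzymes to degrade what they ingest, and cathepsin S, which stays active at neutral pH, is characteristic of antigen-presenting cells. Cystatin C leaves the cell by secretion and blocks cysteine cathepsins, but not cathepsin D or cathepsin A.

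Library 1 held 23381026 counts and library 2 held 41142609. Levels are given as CPM, the count of a gene per 1000000 counts of its library, and where 2 values are given for a gene the first is that of library 1. A gene with 0 counts may still be present at up to 0.128 CPM (library 1) or 0.0729 CPM (library 2), the level of 3 counts. Such limits, and all intervals, hold for counting error alone, since reads amplified from the same molecule are not independent. The 10 microglia markers, among them Tmem119 and P2ry12, were all counted and summed to 40301 and 47521 CPM. They did not move together. By CPM, 6 of the 10 were higher in library 2, such as P2ry12 (4575 and 7450 CPM). The others were lower, such as Sall1 (337 and 146 CPM) and Cx3cr1 (4860 and 3566 CPM). Scaling to their sum, used below, thus rests on genes that differed in direction. The libraries differed in genes of other cells. The 10 neutrophil markers, among them S100a8, S100a9 and Ngp, summed to 4555 and 61834 CPM, and all 10 were over 2-fold higher in library 2 although the gate was Ly6G-negative. The 6 monocyte markers summed to 683 and 3346 CPM, a difference carried by Chil3 (455 and 2901 CPM) and Ly6c2 (90.3 and 302 CPM), while Ccr2 had 65.1 and 76.3 CPM and Plac8 63.7 and 56.7 CPM. The sums were 0.257 and 169 CPM for the 7 basophil or mast cell markers, with Mcpt8, Prss34, Ms4a2, Fcer1a and Cma1 at 0 in library 1, and 25.3 and 373 CPM for the 8 choroid plexus markers. The 8 border macrophage markers summed to 734 and 357 CPM. This difference was carried by F13a1 (225 and 64.7 CPM), Mrc1 (190 and 42.7 CPM) and Cd163 (48.5 and 10.8 CPM). The others differed less, such as Pf4 (79.8 and 64.5 CPM), and 1 of the 8, Ms4a7, was higher in library 2 (47.4 and 59.0 CPM). Markers of astrocytes summed to 233 and 194 CPM, and those of oligodendrocytes to 101 and 111 CPM. In bulk RNA, more cells of a type and more RNA per cell cannot be told apart. Several members, Cst3 and Ctsd in particular, are also expressed by other brain cells and by blood cells, and what these cells contributed to the levels below was not tested.

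The start regions of the genes are shown first, to give the DNA around their RefSeq starts. RefSeq windows on GRCm38.p6, from 250 bases before to 50 bases after a gene's start, were matched for 8 of the 10 genes (9 windows, since Ctsa has a pair of starts). Ctsb and Ctsh had no window. 4 motifs were searched on both strands. They are the E-box CACGTG, which is the core bound by TFEB, TFE3 and MITF, the regulators of lysosomal genes, the motif GAGGAAGT of ETS factors such as PU.1, the core GAAANNGAA of the interferon-stimulated response element (ISRE), and the STAT motif TTCNNNGAA (GAS). The motifs were chosen with the windows in view, so the matches are descriptions. The E-box was present in 4 of the 8 genes with a window, Ctsa, Ctsd, Ctsf and Ctsl, and in 7.15% of the 32851 windows of the table. The ETS motif was present in Ctss and Ctsc and in 3.20% of all windows. The ISRE core was present in Ctss (8.56% of all windows) and the GAS motif in Ctsc (8.30%). None of these letters was found in the windows of Cst3 and Ctsz. Stretches of 30 bases around matches follow, 5′ to 3′ on the strand of the gene, with the motif in capitals. They are from chr3:95526765-95526794 (plus strand) for Ctss, chr7:88277923-88277952 (plus) for Ctsc, chr2:164833759-164833788 (plus) for Ctsa, chr7:142387908-142387937 (minus) for Ctsd, chr19:4855075-4855104 (plus) for Ctsf and chr13:64370739-64370768 (minus) for Ctsl.
Ctss: GAAACCGAAatgaaagttcACTTCCTCatt
Ctsc: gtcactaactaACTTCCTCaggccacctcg
Ctsa: gtCACGTGatgcagatgctCACGTGaccag
Ctsd: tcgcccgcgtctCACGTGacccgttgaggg
Ctsf: accccgtggtcCACGTGcctcgcgtaaata
Ctsl: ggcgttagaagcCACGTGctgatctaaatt
Positions are counted from the RefSeq start of each window as 1. This start is not always the end of the gene span given below. The starts of Ctsd, Ctsf, Ctsl and Cst3, and the second start of Ctsa, lie inside those spans. The stretches shown for Ctsa, Ctsd and Ctsl therefore lie within the annotated genes. Which starts these cells use was not tested. In Ctss the ISRE core begins at −21 and the ETS motif, on the opposite strand, at −2. In Ctsa the copies of the E-box begin at −12 and 6 of the second start. In Ctsd the E-box shown begins at −98 and another lies at −245, while those of Ctsf and Ctsl begin at −79 and −236. The ETS match of Ctsc, also on the opposite strand, begins at −151, and its GAS match, not printed, at −236.

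Cst3 (chr2:148871722-148875692, minus strand) had the highest count of all genes in both libraries. Its level was 30902 CPM (95% Wilson interval 30832 to 30972) in the first mouse and 43495 CPM (43432 to 43557) in the second, or 37198 ± 8904 CPM (SD, n = 2 mice). This was 3.09% of all counts in library 1 and 4.35% in library 2. Cystatin C is abundant in brain and cerebrospinal fluid. The Cst3 level was 1.41-fold higher in library 2 and the intervals did not overlap, but these intervals leave out the spread between mice.

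The cysteine endopeptidases Ctsb, Ctsl, Ctss and Ctsf cut within proteins. Ctss (chr3:95526786-95556403, plus strand), which trims the invariant chain of MHC class II in antigen-presenting cells, had 9388 and 11744 CPM (10566 ± 1666, SD, n = 2). Ctsb (chr14:63122462-63145923, plus strand), which also removes dipeptides from protein ends, had 5870 and 4207 CPM (5039 ± 1176). By CPM, Ctss was thus higher in the library in which Ctsb was lower, although the direction of Ctsb turned after adjustment for GC content and length. Ctsl (chr13:64359337-64370890, minus strand), a strong general lysosomal endopeptidase, had 1086 and 1310 CPM (1198 ± 158). Ctsf (chr19:4855129-4860912, plus strand), whose precursor carries a long propeptide with a cystatin-like domain, had 385 and 475 CPM (430 ± 63.8). Ctsf was the member with fewest reads, 9006 counts in library 1 and 19561 in library 2, and its interval in library 1 was 377 to 393 CPM, so counting error was small beside the spread of the 2 mice for all 10 genes.

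The cysteine exopeptidases remove residues from protein ends. Ctsz (chr2:174427493-174439039, minus strand), a carboxypeptidase also called cathepsin X, had 2954 and 2682 CPM (2818 ± 192). Ctsc (chr7:88278085-88310888, plus strand), a dipeptidyl peptidase that activates the serine proteases of granulocytes and lymphocytes, had 1653 and 1323 CPM (1488 ± 233). Ctsh (chr9:90054152-90076089, plus strand), an aminopeptidase, had 950 and 1249 CPM (1100 ± 212). Ctsc was lower and Ctsh higher in library 2, and Ctsz was lower by CPM but higher with TMM or DESeq2 scaling. The sum of the 3 exopeptidases was 5556 and 5254 CPM.

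Ctsd (chr7:142375911-142388038, minus strand), the aspartic endopeptidase and a main lysosomal protease of the brain, had 9715 and 7535 CPM (8625 ± 1542). It ranked 4th of all genes by count in library 1 and 13th in library 2. Ctsa (chr2:164832873-164841032, plus strand), the serine carboxypeptidase that also protects neuraminidase and beta-galactosidase in the lysosome, had 2071 and 2263 CPM (2167 ± 135). Of the 10 genes, Ctsa had the smallest coefficient of variation between the mice, 6.25%, and Cst3 the highest, 23.9%.

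**Figure D1:**
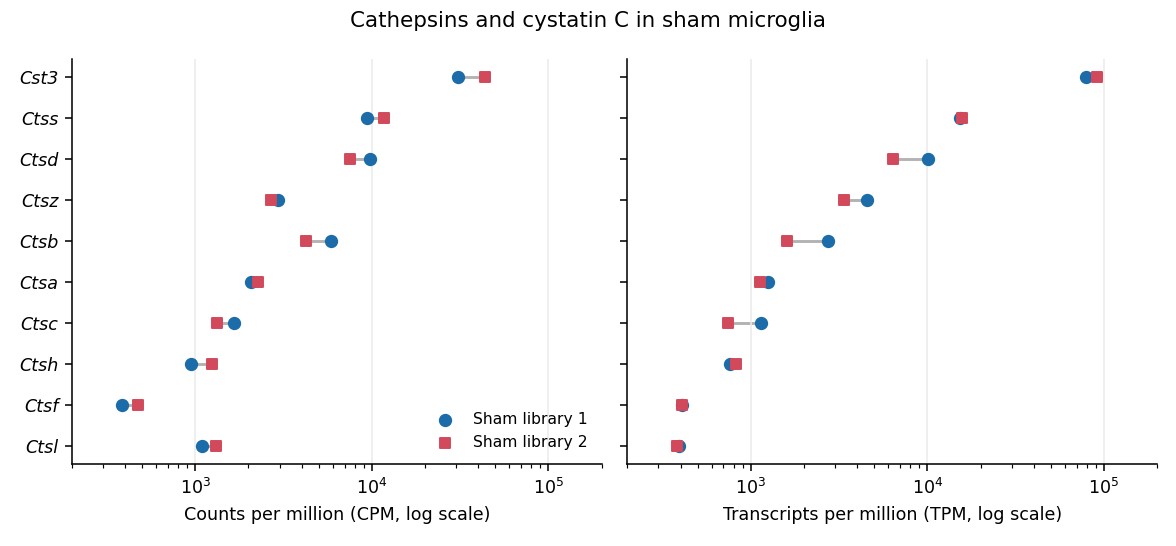
Level of each of the 10 genes in the 2 sham libraries, as CPM on the left and as length-scaled TPM on the right, both on log axes, with a line joining the 2 mice. Cst3 stands apart at the top of both panels, at 30902 and 43495 CPM, and Ctsl is lowest per length but not by count.

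To compare the genes with each other, counts were divided by the length of the longest GENCODE transcript and scaled to sum to 1000000 over all genes (TPM). Cst3 was first with 79610 TPM in library 1 and 91335 TPM in library 2, again the highest of all genes in both. It was followed by Ctss with 15351 and 15652 TPM, Ctsd with 10119 and 6397, Ctsz with 4541 and 3361, and Ctsb with 2742 and 1602. Each of these first 5 genes was separate from the next, in that the ranges over the 2 mice did not overlap. Ctsa with 1258 and 1121 TPM overlapped Ctsc with 1137 and 742, which overlapped Ctsh with 767 and 822. Ctsf (408 and 410 TPM) and Ctsl (390 and 383 TPM) came last.

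The first 5 places were the same with each of 3 other transcript or exon lengths, while the lower places depended on them. The Ctsl transcript used was 6168 bases long. With the shortest transcript that carries the full coding sequence, chosen after seeing the data, Ctsl had 1022 and 1024 TPM and overlapped Ctsc and Ctsa in place of being last. Without any length scaling Ctsb stood above Ctsz. With 2 mice, a range is a pair of values and says little about other mice.

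The 9 cathepsins together took 34073 and 32788 CPM (33430 ± 909, SD, n = 2), a log2 ratio of −0.06. The ratio was 0.19 with TMM, 0.21 with DESeq2 size factors and −0.29 after scaling to the microglia markers, so its sign depended on the scaling. The 7 cysteine cathepsins summed to 22287 and 22990 CPM. With Cst3, the 10 genes took 6.50% of all counts in library 1 and 7.63% in library 2. Cst3 exceeded the summed 7 cysteine cathepsins it can inhibit 3.14-fold in library 1 and 3.98-fold in library 2 per length (TPM), and 1.39-fold and 1.89-fold by CPM. These are ratios of transcripts, and protein was not measured in these libraries.

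Within the cathepsins, shares of the summed TPM do not depend on the library totals, though they do depend on the GC and length adjustment. Ctss made up 41.8% of the pool in library 1 and 51.3% in library 2, and Ctsd 27.6% and 20.98%. The remainder was mostly Ctsz, with 12.4% and 11.02%, and Ctsb, with 7.47% and 5.25%. By class, cysteine endopeptidases were 51.5% and 59.2% of the pool, the aspartic cathepsin 27.6% and 20.98%, cysteine exopeptidases 17.6% and 16.2%, and the serine carboxypeptidase 3.43% and 3.68%. The order of the classes was the same in both mice, and their sizes differed by at most 7.74 percentage points. Ratios of gene pairs behaved unequally. Ctss exceeded Ctsb 5.60-fold in library 1 and 9.77-fold in library 2 by TPM, whereas Ctsd exceeded Ctsb 3.69-fold and 3.99-fold, and Ctss exceeded Ctsl 39.3-fold and 40.8-fold. The last of these values rests on the long Ctsl transcript. After adjustment for GC content and length, the log2 difference of Ctss over Ctsb between the libraries was −0.17 in place of 0.80, that of Ctsd over Ctsb −0.79 in place of 0.11, and that of Ctss over Ctsl −0.77 in place of 0.05. The adjusted value of Ctss over Ctsl also rests on the long Ctsl transcript. The log2 difference of Ctss over Ctsd was 0.63 with the adjustment and 0.69 without. With the adjustment, the shares in library 2 were 46.0% for Ctss, 19.6% for Ctsd and 9.23% for Ctsb.

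**Figure D2:**
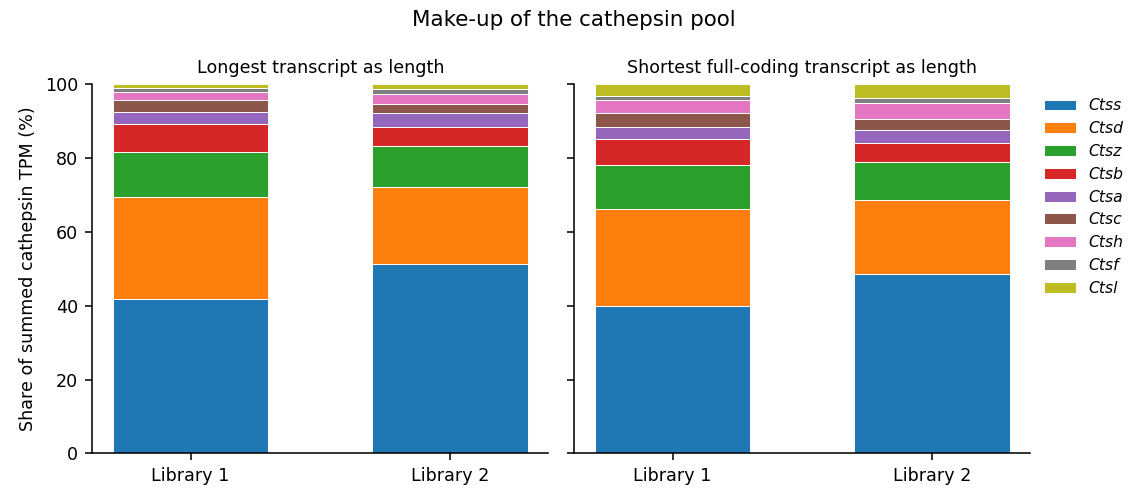
Share of each of the 9 cathepsins in their summed TPM (%), stacked to 100% for each library, with the longest transcript as gene length on the left and the shortest transcript with the full coding sequence on the right. Ctss is the largest block in every bar, at 41.8% and 51.3% on the left, and the Ctsl block is larger on the right.

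The next comparison was that of the 2 mice, gene by gene, as the log2 ratio of CPM in library 2 over library 1. Of the 10 genes, 0 differed by more than 2-fold. Among the 13445 genes that reached 10 counts in each of the 2 libraries the share over 2-fold was 31.7%, but most of those genes had fewer counts. Among the 307 genes with a mean CPM at least that of Ctsf, a set chosen after seeing the data, it was 15.6%. At 1.5-fold, 0 of the 10 genes by CPM, 50.9% of all counted genes and 31.6% of the 307 were past the line. This count of 0 depended on the scaling, since 2 genes were past 1.5-fold with TMM, 3 with DESeq2 size factors, 2 after scaling to the microglia markers and 2 after adjustment for GC content and length. The median ratio of the 10 genes was 0.20, and that of all counted genes was −0.26. Relative to that shift of all genes, Cst3 was at 0.76, Ctsh at 0.66, Ctss at 0.59, Ctsf at 0.57, Ctsl at 0.53, Ctsa at 0.39 and Ctsz at 0.12, and Ctsc was at −0.06, Ctsd at −0.10 and Ctsb at −0.22. The 307 genes of like or higher level had a median ratio of 0.14, so a place above the median of all genes was not particular to the 10 genes.

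**Figure D3:**
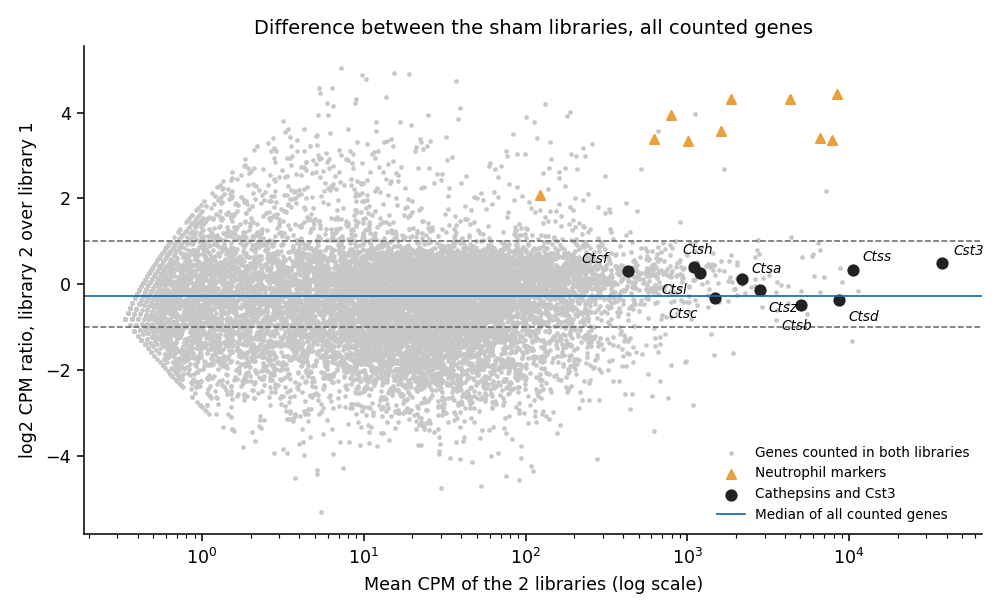
The log2 ratio of CPM in library 2 over library 1 against the mean CPM (log axis) for the 13445 genes counted in both libraries, with the 10 genes in black and neutrophil markers as triangles. Dashed lines mark 2-fold, and the blue line marks the median of all counted genes at −0.26. The 10 genes lie between −0.48 and 0.49, while the neutrophil markers all lie above the upper line.

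The direction of these small differences held under every scaling for 7 genes. Cst3 (log2 ratio 0.49), Ctsh (0.40), Ctss (0.32), Ctsf (0.30) and Ctsl (0.27) were higher in library 2 under CPM and all 6 other settings, and Ctsd (−0.37) and Ctsc (−0.32) were lower under all of them. Some of these ratios became small. After scaling to the microglia markers they were 0.26 for Cst3, 0.16 for Ctsh, 0.09 for Ctss, 0.07 for Ctsf and 0.03 for Ctsl. With DESeq2 size factors they were −0.10 for Ctsd and −0.06 for Ctsc. Apart from the GC and length adjustment, each setting shifts all genes by the same amount, so the settings are not independent checks of direction. Ctsb was at −0.48 with CPM and at 0.38 after adjustment for GC content and transcript length. Ctsa was at 0.13 with CPM but at −0.11 after scaling to the microglia markers, and Ctsz was at −0.14 but at 0.12 with DESeq2 size factors, so neither kept its direction, nor did Ctsb. The GC and length adjustment also put Ctsa at 0.96 and Ctsl at 0.98, just under 2-fold. It used the GC content and length of the longest transcript, so the adjusted value of Ctsl rests on its long transcript. Ctsa, Ctsb and Ctsl are the genes of the 10 with the longest transcripts, at 3646, 4743 and 6168 bases. The median ratio of the 10 genes was 0.45 with TMM, 0.46 with DESeq2 size factors, 0.28 with totals that leave out the neutrophil markers and −0.04 after scaling to the microglia markers.

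**Figure D4:**
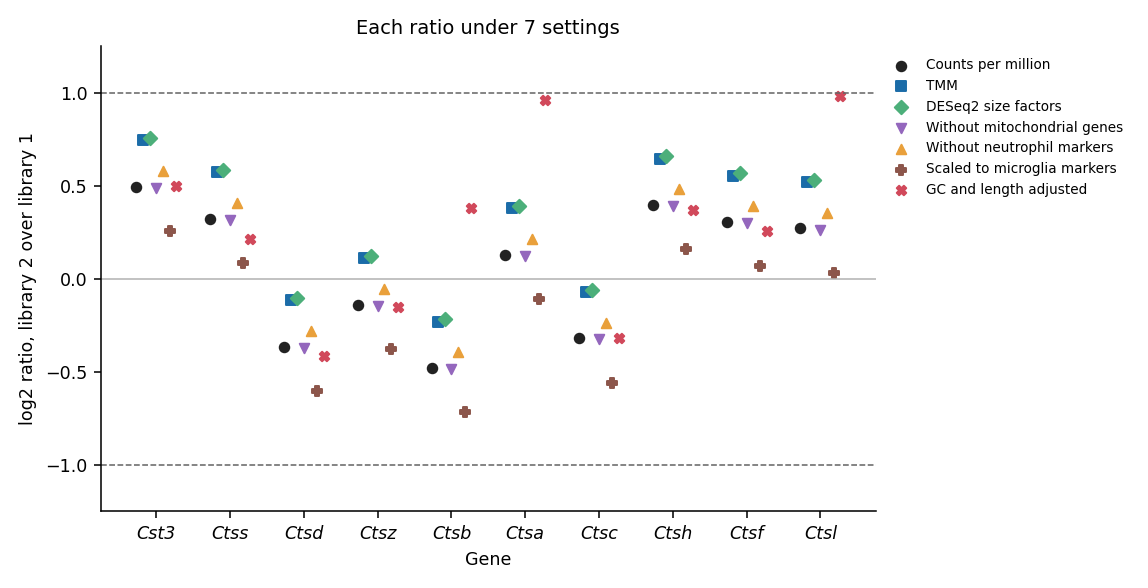
The log2 ratio of library 2 over library 1 for each gene under 7 settings, with dashed lines at 2-fold. All 70 values lie inside the lines, and the red crosses (GC and length adjusted) of Ctsa, Ctsb and Ctsl stand well above the other settings of those genes.

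Of 14 other cathepsins, 9 had 0 counts in both libraries, namely Cts3, Cts6, Cts7, Cts8, Ctsj, Ctsm, Ctsq, Ctsr and Ctsll3, most of which are known from placenta. Of the 53801 genes listed, 19207 had at least 1 count in both libraries, so most genes were at 0 in library 1, library 2 or both. This is a wider measure than 0 in both libraries, and the share of all genes at 0 in both was not worked out. Ctso had 183 and 254 CPM, and per length 117 and 132 TPM, below every one of the 9 cathepsins above. The aspartic protease Ctse had 4.11 and 13.6 CPM, and Ctsg, a serine protease of neutrophil granules, 0.984 and 11.4 CPM (23 and 467 counts). Both were over 2-fold higher in library 2, the library with more neutrophil marker RNA, and no other gene among the 4 counted was. Over all counted genes the share over 2-fold higher in library 2 was 5.74%. Ctsk, the collagen-degrading cathepsin of osteoclasts, lies 17.4 kb from Ctss and had 5 counts in library 1 and 270 in library 2. Ctsw had 27 and 51 counts.

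Among 15 other cystatin genes found, 9 were at 0 in both libraries. These include Cst8, Cst9, Cst11, Cst12, Cst13 and Cstl1, which lie within 200 kb of Cst3 on chromosome 2, so the most abundant transcript of these cells lay in a cluster of cystatin genes that were otherwise undetected at this depth. Most listed genes were at 0 in library 1, library 2 or both, so counts of 0 were common. Without the share of all genes at 0 in both libraries, these 9 cannot be set against a like background. Cstb, the cytosolic inhibitor stefin B, had 72.8 and 97.0 CPM, and Cst7, which encodes cystatin F, an inhibitor that acts inside endosomes and lysosomes, had 20.4 and 16.9 CPM. Per length these were 267 and 291 TPM for Cstb and 45.7 and 31.0 TPM for Cst7, against 79610 and 91335 TPM for Cst3. The stefin A genes Stfa1 (37 and 208 counts), Stfa2 (9 and 43), Stfa2l1 (111 and 385) and Stfa3 (2 and 48) had more counts in library 2. They are near-identical copies known from neutrophils, and how reads were split among them is uncertain.

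Of 8 genes for processing and sorting, 7 were counted. By CPM, 1 of them was over 2-fold lower and 0 over 2-fold higher in library 2. Over all counted genes, 25.9% were over 2-fold lower and 5.74% over 2-fold higher. Lgmn, the asparaginyl endopeptidase that processes several cathepsins, had 4508 and 2544 CPM. Psap, whose product binds procathepsin D, had 2421 and 2107 CPM. The cation-dependent mannose 6-phosphate receptor M6pr had 305 and 318 CPM, whereas Igf2r, the gene of the larger receptor, had 7 and 74 counts. Gnptab, a subunit of the enzyme that begins the mannose 6-phosphate tag, had 21.98 and 3.55 CPM (log2 ratio −2.63) and was the gene past 2-fold, while Gnptg of the same enzyme had 63.0 and 85.1 CPM. Nagpa, which uncovers the tag, had 271 and 272 CPM, and Sort1, an alternative sorting receptor, 86.3 and 44.6 CPM. After adjustment for GC content and length, Lgmn (log2 ratio −1.01) was past 2-fold lower as well as Gnptab (−1.65). With it, Sort1 was higher in library 2 (0.43), Nagpa was at 0.58, Gnptg at 0.36, Psap at 0.001 and M6pr at −0.09. Over all genes so adjusted, 22.4% were past 2-fold in either direction.

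Neu1 and Glb1, the neuraminidase and beta-galactosidase that cathepsin A protects, had 110 and 123 CPM (Neu1) and 92.4 and 75.1 CPM (Glb1). The factors that bind the E-box were all present. Tfeb had 88.7 and 49.0 CPM, Tfe3 238 and 129 CPM, and Mitf 29.2 and 16.6 CPM. These were past 2-fold in 0 of 3 cases, beside 31.7% of all counted genes in either direction, and 3 genes are too few to set against that share. By CPM all 3 were lower in library 2, but after adjustment for GC content and length Tfe3 was higher (log2 ratio 0.36), with Tfeb at −0.27 and Mitf at −0.40. Cd74, the invariant chain cut by cathepsin S, had 1334 and 953 CPM. Of 5 granule proteases that cathepsin C activates, the 3 counted were all over 2-fold higher in library 2, against the same 5.74% of all counted genes, Elane with 22.1 and 86.6 CPM, Prtn3 with 7.57 and 29.9 CPM, and Ctsg as above, whereas Ctsc itself was lower there. Gzma had 0 and 11 counts and Gzmb 1 and 22. The neutrophil markers given above moved with these proteases, and their part in the result was not tested.

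**Figure D5:**
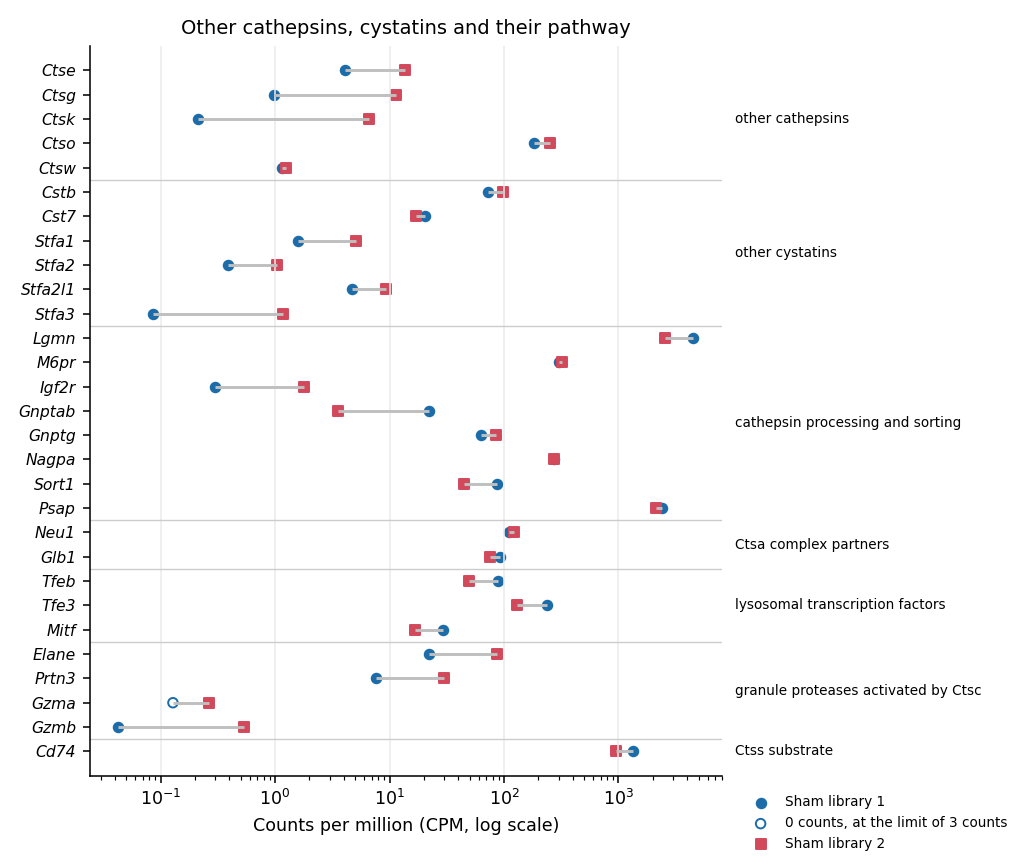
CPM (log axis) of the other cathepsins, cystatins and pathway genes with any count in the 2 sham libraries, grouped by list. The open circle marks the gene with 0 counts in library 1, drawn at the limit of 3 counts. Lgmn, at 4508 and 2544 CPM, and Psap, at 2421 and 2107 CPM, lie at the right, and Ctsk (5 and 270 counts) has the widest gap between libraries among genes with counts in both.

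The genes closest to Cst3 by level, measured as Euclidean distance of log2 CPM over the 2 libraries, were the complement gene C1qb (distance 2.43), Ctss (2.55) and the complement gene C1qc (2.89). Those closest to Ctss included C1qb (0.37) and C1qc (0.37). The distances to Cst3 were larger because no gene had a level near it. With 2 libraries this likeness is one of level alone.

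Some reads could be shared with overlapping genes, because whether counting used the strand of reads is not stated. Fdft1 overlaps Ctsb, Gm26522 overlaps Ctsc, Nelfcd overlaps Ctsz by 10 bases, and Pltp and Neurl2 overlap Ctsa, all on the opposite strand. Hmgb1-ps5 lies within Ctss on the same strand. None of these had more than 2.54% of the counts of the cathepsin gene it overlaps. The genes Gm49369, which overlaps Ctsd on the same strand, and Gm47123 and Gm49230, which overlap Ctsl, had 0 counts in both libraries. How reads that fall on overlapping genes were handled is not stated in the sources used here. The counts of the overlapping genes therefore do not show how many reads Ctsd, Ctsl or the other cathepsin genes may have lost.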

How the data were processed

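Sorted microglia from 2 sham mice were analysed. The authors made cDNA with the SMART-Seq HT Kit, built libraries by tagmentation, sequenced 75-bp read pairs, aligned them to GRCm38 (HISAT2) and counted reads by Ensembl ID (HTSeq). What was deposited is the raw count of each gene, without normalization. Versions, annotation release and strand setting are not given in the sources used here. The authors' table comparing conditions, which holds fold changes and adjusted p-values, was not used.

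CPM used all counts on genes. TPM used the longest transcript of GENCODE M21, which gave a symbol and a length for 53620 genes. Gene positions are those of the files, given from 1. A gene was counted with at least 10 counts in both libraries. Spread is the SD of 2 mice, and Wilson intervals are at 95%. GC and length adjustment subtracted the median log2 ratio in 10 by 10 bins, or in the GC bin alone where fewer than 20 genes shared both. Other scalings were TMM (edgeR 4.0.16), DESeq2 1.42.0 size factors, totals without mitochondrially encoded genes or neutrophil markers, and microglia markers. Scripts were tested on simulated data. R 4.3.3, Python 3.11.15, numpy 2.4.6, pandas 2.3.3, scipy 1.17.1 and matplotlib 3.10.9 were used.

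The genes and lists were chosen with earlier results of these data known. Genes named are the 10 genes, the pathway lists, the 3 genes nearest to Cst3 and to the highest cathepsin, and genes that overlap one of them. 1 listed cystatin, Csta2, was not found. Of the nearest genes, 1 is not reported here.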

Additional observations from a re-analysis of the deposited data

How the results depend on the processing

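The summed level of the 9 cathepsins was 34589 CPM with totals that leave out neutrophil markers, against 33430 CPM, and moved by less than 1 SD under the other scalings. TMM, DESeq2 and microglia-marker scaling raise the level in either library as they lower it in the other, so they hold this mean nearly fixed. The log2 ratio of the sum, which can move, was 0.21 with DESeq2 size factors and −0.29 after scaling to the microglia markers. The share of counted genes over 2-fold apart was 15.6% among genes at least as high as Ctsf. With merged exon length, 1 pair of neighbours in the order overlapped instead of 2. Cysteine exopeptidases made up 16.9% of the pool on average, and 18.8% with the APPRIS principal transcript or 18.4% with the shortest full-coding transcript, both added after seeing the data. The serine carboxypeptidase made up 3.55%, and 6.49% without length scaling. These follow from the lengths and genes used. The count of 0 of 10 genes past 2-fold was the same under the 6 other settings, while 0 to 3 genes were past 1.5-fold, a comparison added after seeing the data. Leaving out library 1 or library 2 gave summed levels of 32788 and 34073 CPM, which with 2 libraries is each library's own value and says nothing about stability. No paired analysis was possible because the series as analysed has 1 group. With 2 libraries, the spread between mice and not depth limits every mean.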
